A study of Arabidopsis thaliana with 12 samples.

Results

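SMB (SOMBRERO, AT1G79580), BRN1 (BEARSKIN1, AT1G33280), BRN2 (BEARSKIN2, AT4G10350) and FEZ (AT1G26870) are NAC transcription factors of the Arabidopsis root cap. They were taken by gene identifier from a table of 37884 genes, and all 4 were found. All 4 were also among the 23375 genes tested, which are those whose average over the 12 libraries reached 10 normalized counts.

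The root cap is the tissue that covers the growing root tip. It consists of the central columella, whose starch-filled cells sense gravity, and the lateral root cap, and it is renewed by stem cells inside while its outermost cells are lost. FEZ acts in those stem cells and promotes the divisions that add new cap layers. SMB acts in their daughter cells, where it is activated by FEZ, represses FEZ in turn and drives cap differentiation and, in the lateral cap, programmed cell death. BRN1 and BRN2 act with SMB, in part redundantly, in late cap maturation, including the wall changes by which outer cap layers detach.

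The study compared roots of 4-day-old seedlings to find genes downstream of ERF115 (AT5G07310) and ERF114 (AT5G61890), related AP2/ERF transcription factors known for roles in stem cell division and regeneration. The groups were 35S:ERF115 (ERF115OX), 35S:ERF114 (ERF114OX), 35S:ERF115-SRDX (ERF115-SRDX, in which the factor is fused to a repression motif) and wild-type Col-0 (WT), with 3 libraries each. All transgenes were driven by the constitutive CaMV 35S promoter, so expression was not limited to the root cap or to the cells that normally hold these factors. The labels give neither the number of independent lines nor the seedlings per library, nor whether replicates were grown apart. The p-values therefore reflect the spread among these 12 libraries alone, part of which may be technical. For the ERF114 line the genotype entry names ERF115OX in brackets, and group membership was taken from the titles.

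Depth was 47242114 to 48343410 reads per library. ERF115 transcripts reached 34638 to 38360 normalized counts in ERF115OX and 83518 to 88807 in ERF115-SRDX, and ERF114 reached 44417 to 47807 in ERF114OX. In WT, ERF115 had 4.86, 23.4 and 561 normalized counts in libraries 1, 2 and 3, so WT 3 stood apart for this gene. ERF114 had 2.01, 92.5 and 104 normalized counts in ERF115OX 1, 2 and 3, against 35.0, 10.7 and 12.9 in WT 1, 2 and 3. Markers of the root meristem, endodermis, root hairs and xylem were above 0 in every library. The 19 photosynthetic genes of the shoot list differed most, at 0.712% to 0.989% of a library in ERF115OX, 0.308% to 1.01% in ERF114OX, 0.0231% to 0.328% in ERF115-SRDX and 1.22% to 2.49% in WT, with none at 0. ERF114OX 1 held the lowest share of its group and ERF115-SRDX 2 the highest of its group.

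All 4 NAC genes were read well above the floor of 3 reads, which corresponds to 2.90 to 3.18 normalized counts. The lowest count in any library was 261 reads for SMB, 200 for BRN1, 153 for BRN2 and 58 for FEZ. The spread between replicates was 7.58% to 16.9% of the mean for SMB, 6.83% to 20.8% for BRN1, 6.03% to 17.3% for BRN2 and 4.54% to 12.7% for FEZ. Counting error alone gives 10.1% to 12.2% for FEZ, about as large as its spread, and 4.75% to 7.76% for the others. Transcript lengths were not used here, so levels were compared across libraries within a gene and not between genes.

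FEZ, the factor of the cap stem cells, had 105, 86.4 and 107 normalized counts in ERF115OX libraries 1 to 3. It had 93.9, 94.2 and 102 in ERF114OX, 77.6, 60.6 and 66.2 in ERF115-SRDX, and 97.2, 96.6 and 81.7 in WT. Its means were 99.5 ± 11.4 for ERF115OX, 96.6 ± 4.38 for ERF114OX, 68.1 ± 8.67 for ERF115-SRDX and 91.8 ± 8.79 for WT (SD, n = 3 each). All ERF115-SRDX libraries lay below all libraries of the other groups, and ERF115OX, ERF114OX and WT overlapped.

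SMB, the factor of the differentiating daughter cells, had 374, 265 and 333 normalized counts in ERF115OX. It had 510.2, 393 and 450.2 in ERF114OX, 345, 306 and 300.5 in ERF115-SRDX, and 339, 429 and 357 in WT. Its means were 324 ± 54.7 in ERF115OX, 451 ± 58.7 in ERF114OX, 317 ± 24.05 in ERF115-SRDX and 375 ± 47.7 in WT (SD, n = 3 each). In order of level the groups were ERF114OX, WT, ERF115OX and ERF115-SRDX, and each overlapped with the next, while the ERF114OX libraries all lay above those of ERF115OX and ERF115-SRDX.

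BRN1 had 440.2, 319 and 309 normalized counts in ERF115OX. It had 445, 389.7 and 430.5 in ERF114OX, 305, 209 and 310.4 in ERF115-SRDX, and 443, 438 and 328 in WT. The means were 356 ± 73.0 in ERF115OX, 422 ± 28.8 in ERF114OX, 275 ± 57.2 in ERF115-SRDX and 403 ± 65.3 in WT (SD, n = 3 each). ERF115-SRDX lay below ERF114OX and WT without overlap and overlapped slightly with ERF115OX, and ERF115-SRDX 2 was the lowest of the 12 libraries.

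BRN2 had 326, 246 and 249 normalized counts in ERF115OX, 327, 286 and 308 in ERF114OX, 179, 159.8 and 165 in ERF115-SRDX, and 213, 302 and 259.9 in WT. The means were 274 ± 45.6 in ERF115OX, 307 ± 20.7 in ERF114OX, 168 ± 10.1 in ERF115-SRDX and 258 ± 44.8 in WT (SD, n = 3 each). The ERF115-SRDX libraries all lay below every other library, and the other groups overlapped with their neighbours in order of level, ERF114OX, ERF115OX and WT.

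**Figure D1:**
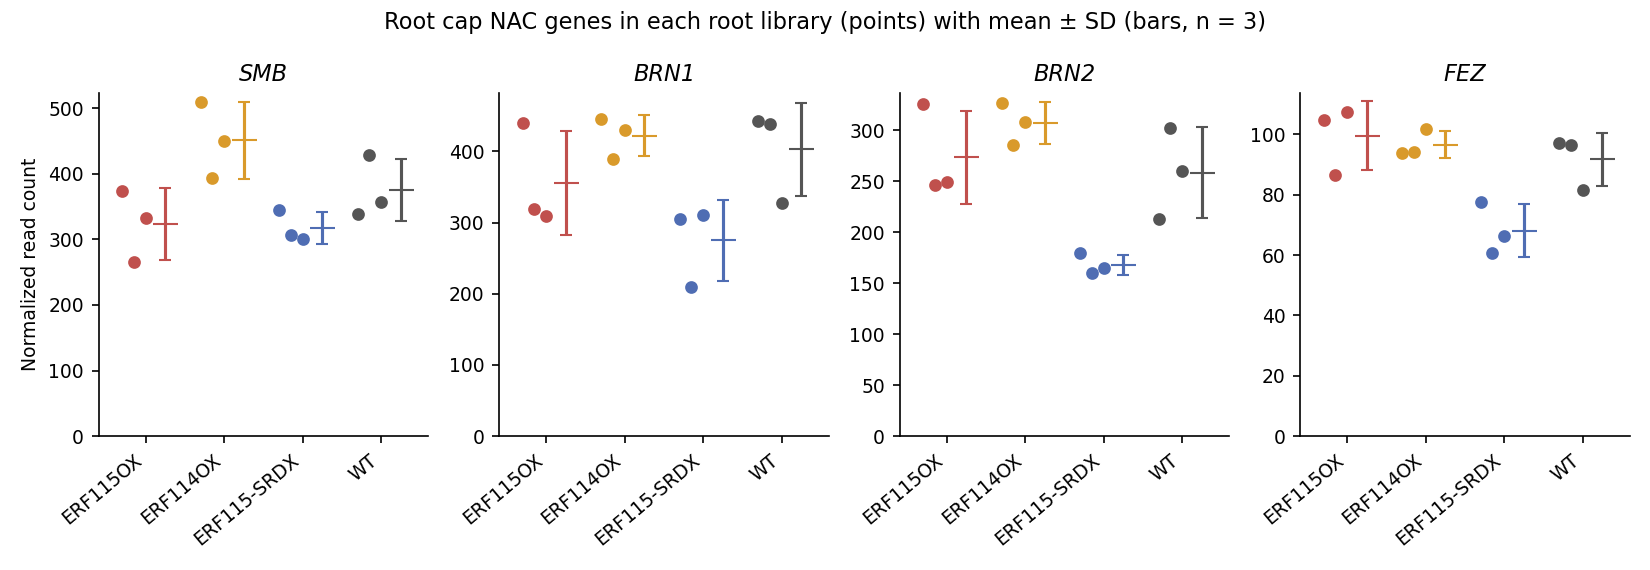
Normalized read counts of SMB, BRN1, BRN2 and FEZ (y axis, from 0, 1 panel per gene) in the 12 root libraries; points are libraries 1 to 3 from left to right in each group, and bars give the mean ± SD (n = 3). BRN2 and FEZ sit lower in all ERF115-SRDX libraries than in any other library, and SMB in ERF115-SRDX overlaps with WT.

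The first comparison asks which genes differ when ERF115 is turned into a repressor. In ERF115-SRDX roots, BRN2, BRN1 and FEZ fell relative to WT and SMB did not pass the test. BRN2 was at 0.658 of the WT level (log2 difference -0.60 ± 0.14 SE, 95% interval -0.92 to -0.29, adjusted p = 0.0035, limma with Benjamini-Hochberg adjustment over all tested genes). BRN1 was at 0.678 of WT (-0.56 ± 0.18, interval -0.95 to -0.17, adjusted p = 0.020). FEZ was at 0.743 of WT (-0.43 ± 0.15, interval -0.76 to -0.09, adjusted p = 0.034). The SMB difference was -0.24 ± 0.14 with an interval of -0.54 to 0.07 (adjusted p = 0.19), which still allows a fall of the size seen for FEZ.

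Thus 3 of the 4 factors fell, where 26.6% of all tested genes were lower and 50.1% differed in either direction in this comparison. The same 3 had no overlap between the libraries of both groups, which 30.4% of all tested genes showed in that direction. The median over the 4 was -0.49 on the log2 scale, against -0.001 over all tested genes. The differences were moderate within this transcriptome: 71.8% of the tested genes had a smaller absolute difference than BRN2, 70.0% a smaller one than BRN1, 62.9% than FEZ and 45.6% than SMB. In RNA from whole roots, fewer cap cells and less RNA of these genes per cap cell cannot be told apart.

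The call on BRN2 passed when any of the 12 libraries was left out, with log2 differences of -0.74 to -0.48 and adjusted p of 0.0012 to 0.017. BRN1 did not pass without ERF115-SRDX 2 (-0.37, adjusted p = 0.086), WT 1 (-0.48, 0.074) or WT 2 (-0.49, 0.067). FEZ did not pass without ERF115-SRDX 2 (-0.35, adjusted p = 0.13), ERF115-SRDX 3 (-0.41, 0.081), WT 1 (-0.39, 0.10) or WT 2 (-0.39, 0.094). Without WT 3, the library with raised ERF115, the differences were -0.59 for BRN2, -0.70 for BRN1 and -0.51 for FEZ, and all 3 passed. Quantile normalization ended the calls on BRN1 (-0.43, adjusted p = 0.074) and FEZ (-0.22, 0.31), and DESeq2 that on FEZ (-0.42, 0.084).

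The shoot markers moved with this comparison. All 19 photosynthetic genes were lower in ERF115-SRDX than in WT (median log2 difference -5.25), and the ERF115-SRDX library with the most of them, library 2, was also the lowest of its group for BRN1, BRN2 and FEZ. With the mean log2 level of the photosynthetic list in each library as a term of the model, the differences were larger and less certain for BRN2 (-0.75, adjusted p = 0.056) and FEZ (-0.67, adjusted p = 0.13), and BRN1 passed at -1.16 (adjusted p = 0.0051). That level was 8.44 to 12.9 in ERF115-SRDX and 14.6 to 15.6 in WT, without overlap. The model therefore separates level from line poorly, and its values rest on extrapolation between the groups. Of the other markers, 5 of 6 xylem genes and 2 of 10 endodermis genes were higher and 2 of 10 root hair genes lower in ERF115-SRDX than in WT. In this comparison 50.1% of all tested genes were called in either direction. The xylem genes summed to 20628 to 21894 normalized counts in ERF115-SRDX and 14962 to 16920 in WT, and the root meristem genes to 3499 to 4215 in ERF115-SRDX and 3616 to 4594 in WT. The part of these tissues in the NAC differences was not tested.

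**Figure D2:**
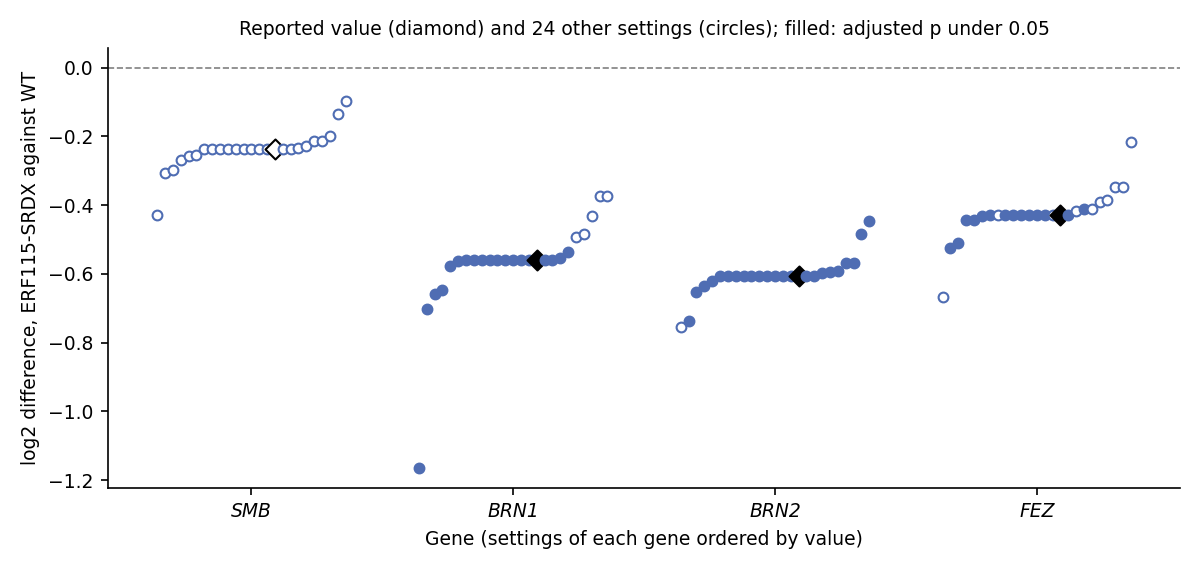
log2 difference of ERF115-SRDX against WT (y axis) for each of the 4 genes, as reported (diamonds) and under 24 other settings (circles, ordered by value within a gene); filled symbols have an adjusted p under 0.05. All values lie below 0, those of BRN2 are filled except at -0.75, and FEZ has 10 open circles.

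None of the 4 factors passed the test in the overexpression lines. In ERF115OX, 0 of 4 passed against WT in limma, edgeR and DESeq2, and 0 had an unadjusted p under 0.05, where 32.1% of all tested genes differed. The log2 differences were 0.11 for FEZ (interval -0.22 to 0.45), -0.22 for SMB (-0.52 to 0.09), -0.18 for BRN1 (-0.57 to 0.21) and 0.09 for BRN2 (-0.23 to 0.40). For all 4 the ERF115OX and WT libraries overlapped. The interval of BRN1 reaches as far down as the fall seen for it in ERF115-SRDX.

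In ERF114OX, again 0 of 4 passed against WT in limma, edgeR and DESeq2, 0 had an unadjusted p under 0.05, and 37.1% of all tested genes differed. SMB was at 1.202 times the WT level (log2 difference 0.27, interval -0.04 to 0.57, adjusted p = 0.16) and BRN2 at 1.198 times (0.26, interval -0.05 to 0.57, adjusted p = 0.18). FEZ had 0.08 (-0.26 to 0.41) and BRN1 0.08 (-0.31 to 0.47), and the sign of these last differences turned without WT 3, at -0.0051 for FEZ and -0.065 for BRN1. Libraries of ERF114OX and WT overlapped for each gene. The photosynthetic list had medians of -1.03 in ERF115OX and -1.36 in ERF114OX against WT, with 0 of 19 genes called in each line. By contrast, 10 of 10 root hair genes were called higher than in WT in each line. The 3 comparisons with WT share the same WT libraries.

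The overexpression lines were also compared with the repressor line and with each other. ERF115OX and ERF115-SRDX carry the same factor without and with the repression motif. Their ERF115 transcripts also differed, at 34638 to 38360 normalized counts in ERF115OX and 83518 to 88807 in ERF115-SRDX. Between these lines, BRN2 was 1.61 times as high in ERF115OX (log2 difference 0.69 ± 0.14, adjusted p = 0.0013) and FEZ 1.46 times as high (0.54 ± 0.15, adjusted p = 0.0093). BRN1 did not pass (0.38 ± 0.18, interval -0.01 to 0.77, adjusted p = 0.092), except with the photosynthetic level in the model (0.85, adjusted p = 0.0094). That level itself differed between these lines. SMB was nearly level between them (0.02 ± 0.14, interval -0.29 to 0.33, adjusted p = 0.92), and only 3.50% of tested genes had a smaller absolute difference there. Hence 2 of 4 were higher, where 29.6% of all tested genes were higher and 56.0% differed. With ERF114OX 1 and ERF115-SRDX 2 left out, FEZ just missed the threshold (0.46, adjusted p = 0.0502).

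Between ERF114OX and ERF115-SRDX all 4 factors were higher in ERF114OX without overlap, where 30.0% of all tested genes were called higher, 55.9% differed and 33.6% lay higher without overlap. BRN2 was 1.82 times as high (0.87 ± 0.14, adjusted p = 0.00024), BRN1 1.55 times (0.64 ± 0.18, adjusted p = 0.0091), FEZ 1.42 times (0.50 ± 0.15, adjusted p = 0.014) and SMB 1.42 times (0.50 ± 0.14, adjusted p = 0.0089). Without ERF115-SRDX 2, FEZ did not pass (0.42, adjusted p = 0.059). With ERF114OX 1 and ERF115-SRDX 2, the libraries that stood apart for photosynthetic genes, both left out, BRN2 passed, but SMB (0.38, adjusted p = 0.076), BRN1 (0.41, 0.080) and FEZ (0.44, 0.083) did not. All 19 photosynthetic genes were also higher in each overexpression line than in ERF115-SRDX (medians 3.94 in ERF115OX and 3.71 in ERF114OX), and with their level in the model BRN1 stood 1.08 higher in ERF114OX. Because their level differed between these lines, the model separates level from line poorly here too.

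SMB differed most between the overexpression lines, without passing the adjusted threshold. Its ERF115OX libraries all lay below those of ERF114OX (-0.48 ± 0.14, interval -0.79 to -0.18, unadjusted p = 0.0049, adjusted p = 0.061), a difference larger than that of 90.1% of tested genes in a comparison where 6.90% were called and 10.8% lay lower without overlap. It missed the threshold in limma and edgeR and passed in DESeq2 (-0.48, adjusted p = 0.019) and without ERF115OX 1 (-0.59, adjusted p = 0.029). With the photosynthetic level in the limma model it passed narrowly (-0.48, adjusted p = 0.047). In all, 0 of 4 factors were called in limma, with 1 at an unadjusted p under 0.05. The interval was -0.65 to 0.13 for BRN1, -0.49 to 0.14 for BRN2 and -0.30 to 0.37 for FEZ.

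**Figure D3:**
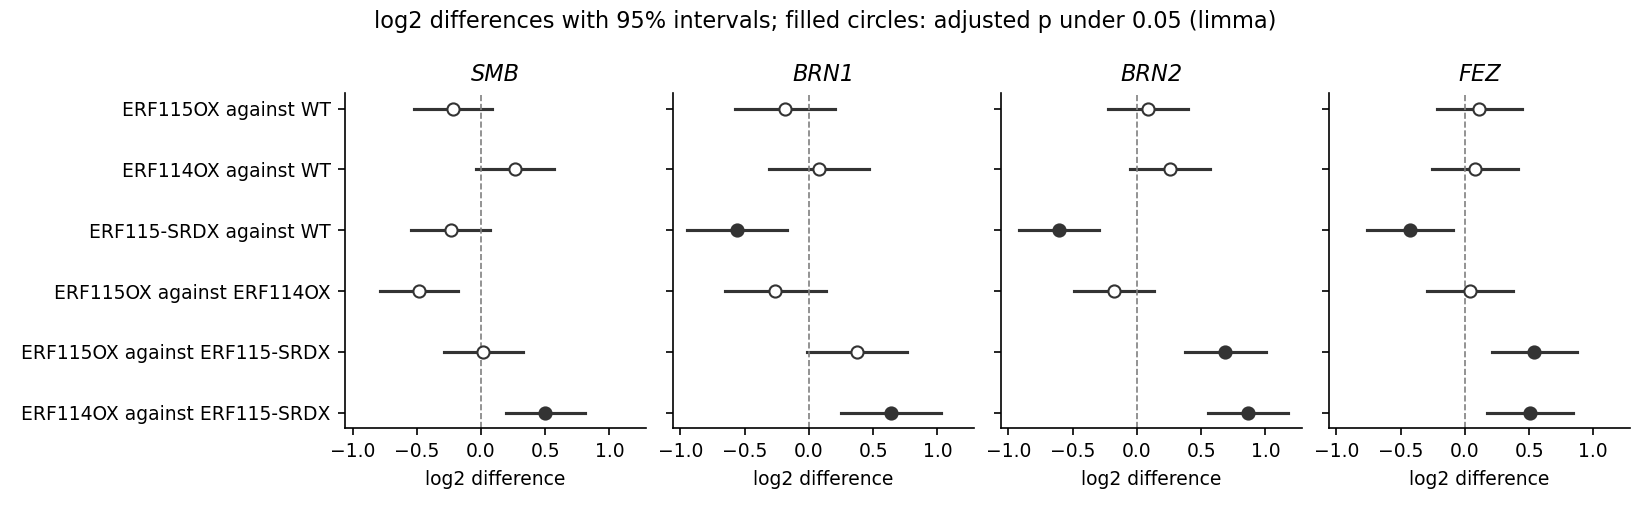
log2 differences (x axis) of SMB, BRN1, BRN2 and FEZ in the 6 comparisons (rows), with the first-named group over the second; lines are 95% intervals and filled circles have an adjusted p under 0.05 in limma. BRN2 and FEZ are filled in each comparison that holds ERF115-SRDX, and SMB is filled only for ERF114OX against ERF115-SRDX.

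Ratios within a library show how the factors moved against each other and do not depend on the scaling of the libraries. The BRN2 to SMB ratio was 0.850 ± 0.092 in ERF115OX, 0.684 ± 0.043 in ERF114OX, 0.531 ± 0.016 in ERF115-SRDX and 0.687 ± 0.053 in WT (SD, n = 3 each). All ERF115OX libraries lay above WT, from 0.748 to 0.927 against 0.628 to 0.729, and all ERF115-SRDX libraries lay below, from 0.520 to 0.549. Both reached the smallest p that 3 against 3 libraries allow in an exact permutation test, two-sided p = 0.1, with 0.6 after adjustment over the 12 ratio comparisons. The FEZ to SMB ratio was 0.310 ± 0.025 in ERF115OX, 0.217 ± 0.029 in ERF114OX, 0.214 ± 0.015 in ERF115-SRDX and 0.247 ± 0.034 in WT. The BRN2 to BRN1 ratio ranged from 0.480 to 0.793 within WT alone, and every other group overlapped with that range.

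Over the 12 libraries the 4 factors followed each other in part. The Pearson correlation of log2 normalized counts was 0.82 for BRN2 with FEZ, 0.78 for BRN1 with FEZ, 0.78 for BRN1 with BRN2, 0.71 for SMB with BRN2, 0.68 for SMB with BRN1 and 0.51 for SMB with FEZ. With group means removed, SMB with BRN2 was highest at 0.83 and BRN2 with FEZ lowest at 0.27. These values describe libraries that share group, depth and tissue makeup. No factor was among the genes closest to another: at best, BRN2 ranked 226 among the tested genes by its likeness to SMB.

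The genes most like each factor across the 12 libraries, out of 23365 compared, were as follows. For SMB they were AT3G17580, annotated as an SsrA-binding protein (r = 0.91), the small nucleolar RNA gene AT3G05355 (0.90) and the uncharacterized AT4G37095 (0.89). For BRN1 they were the rhodanese-like AT1G09280 (0.95), the late embryogenesis abundant-like AT4G27400 (0.94) and U2A', a spliceosome subunit (0.94). For BRN2 they were the WD40-repeat gene AT2G38630, the cytochrome P450 gene CYP702A2 and the disease resistance-like AT5G40100, each at 0.96. For FEZ they were the AT-hook gene AT4G17950 (0.94), the F-box-like AT1G78840 (0.94) and HSFB4 (0.93), known as SCHIZORIZA, which regulates asymmetric stem cell divisions in the root. HSFB4 averaged 1068 ± 79.2 normalized counts in ERF115OX, 1059 ± 11.6 in ERF114OX, 809 ± 64.6 in ERF115-SRDX and 943 ± 90.1 in WT (SD, n = 3 each). The adjacent genes did not overlap the 4 factors in the TAIR10.1 annotation, so their reads are not shared by position.

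Genes listed for root cap processes moved in both directions, and some of them are known mainly from other tissues. Of 35 genes in 5 lists 34 were tested, CLE40 being below the filter. Against WT, 11 of the 34 were called in ERF115OX (5 higher and 6 lower), 17 in ERF114OX (7 higher and 10 lower) and 22 in ERF115-SRDX (11 higher and 11 lower). These are 32.4%, 50% and 64.7% of the tested list, beside 32.1%, 37.1% and 50.1% of all tested genes. With the photosynthetic level in the model, 11 of the 34 were called in ERF115-SRDX (32.4%), beside 26.2% of all tested genes, so calls became fewer in the list and in all genes alike.

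Of 7 genes of cap cell release and wall loosening, 4 were lower and 2 higher in ERF115-SRDX, with a median log2 difference of -0.89 against -0.001 over all tested genes. Of all tested genes 26.6% were lower and 50.1% were called in either direction. CEL3, a cellulase, had 30.2, 28.2 and 58.3 normalized counts in ERF115-SRDX against 175, 157 and 146 in WT, a log2 difference of -2.08 ± 0.25 (adjusted p = 1.6e-05). The pectin lyase-like gene AT1G65570 fell by 1.09 ± 0.15 on the log2 scale, to 343 to 385 in ERF115-SRDX against 679 to 852 in WT (adjusted p = 6.0e-05). CEL5, the cellulase known from cap cell detachment, fell by 0.89 ± 0.14 on the log2 scale, to 1531 to 2002 in ERF115-SRDX against 2717 to 3798 in WT (adjusted p = 0.00014). The pair that was higher, named after its values were seen, was IDL1, a peptide of the IDA abscission family (0.85 ± 0.23, adjusted p = 0.0086), and NLP7, a regulator of nitrate responses (0.25 ± 0.08, adjusted p = 0.027).

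In the overexpression lines CEL3 moved the other way. It had 552, 322 and 375 normalized counts in ERF115OX, 592, 662 and 627 in ERF114OX and 146 to 175 in WT, with log2 differences of 1.35 ± 0.25 (adjusted p = 0.0018) and 1.97 ± 0.25 (adjusted p = 0.00014) in ERF115OX and ERF114OX. It was the only called gene of the 7 in ERF115OX (14.3%, beside 32.1% of all tested genes), so most of the list did not pass there. In ERF114OX 57.1% of the list was called, beside 37.1% of all tested genes. In ERF114OX the list had 2 higher and 2 lower, with NLP7 at -0.36 ± 0.08 (adjusted p = 0.0059) and ADPG2, a polygalacturonase of abscission and dehiscence, at 6.78, 10.6 and 2.07 normalized counts against 31.1, 51.7 and 37.8 in WT (adjusted p = 0.0093). ADPG2 is close to the floor there, so its fold depends on the pseudocount. CEL3 and CEL5 are related in sequence, and how reads that match both were counted is not stated in the labels.

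The NAC factors listed for cell death split in ERF115-SRDX. In RNA from whole roots, the cells in which they differed are not known. NAC074, linked to cell death in floral stigma, had 10.1, 5.22 and 5.93 normalized counts in ERF115-SRDX against 107, 104 and 114 in WT (-3.80 ± 0.23, adjusted p = 3.9e-08). ORE1, known from leaf senescence, had 1918, 2302 and 1920 in ERF115-SRDX against 476, 490 and 533 in WT (2.03 ± 0.11, adjusted p = 1.0e-08). ANAC087, which acts in cap cell death, was higher in ERF115-SRDX by 0.48 ± 0.08 (adjusted p = 0.00030), and ANAC046, its partner in the cap, was not called. ANAC046 was higher in the overexpression lines, by 0.50 ± 0.08 in ERF115OX (adjusted p = 0.00061) and 0.61 ± 0.08 in ERF114OX (adjusted p = 0.00013). ORE1 fell in ERF114OX by 0.78 ± 0.11 on the log2 scale (adjusted p = 0.00023). ANAC087 passed narrowly in ERF115OX (0.23 ± 0.08, adjusted p = 0.046) and did not pass when any of 8 single libraries was left out, with adjusted p from 0.016 to 0.18 over the 12. Nor did it pass with TMM scaling (0.070), in edgeR (0.070), with no filter (0.056), with only the groups compared (0.075), with a replicate block (0.054) or with the photosynthetic level in the model (0.053).

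Among 8 executors of cell death, 4 were higher and 0 lower in ERF115-SRDX, 4 higher and 1 lower in ERF114OX, and 2 higher and 0 lower in ERF115OX. The shares called were 50%, 62.5% and 25% in these lines, beside 50.1%, 37.1% and 32.1% of all tested genes, so those in ERF115-SRDX and ERF115OX were near or below the share of all genes. CEP1, a papain-type cysteine protease, had 586, 745 and 649.5 normalized counts in ERF115-SRDX against 109.8, 148 and 126 in WT (2.36 ± 0.17, adjusted p = 1.6e-07). In ERF114OX it fell to 31.0, 23.3 and 22.8 (-2.28 ± 0.17, adjusted p = 4.0e-06). The DUF679 membrane protein gene AT4G18425 was higher in ERF115-SRDX by 1.14 ± 0.09 (adjusted p = 4.3e-07) and in ERF114OX by 0.57 ± 0.09 (adjusted p = 0.00061). Its call in ERF115OX (0.28 ± 0.09, adjusted p = 0.033) was lost without ERF115OX 2 (adjusted p = 0.052), ERF115OX 3 (0.13), WT 1 (0.072) or WT 2 (0.11), with TMM scaling (0.060), in edgeR (0.060) and with only the groups compared (0.090). The aspartyl protease gene AT4G04460 was higher in ERF115-SRDX by 0.44 ± 0.07 (adjusted p = 0.00019). BFN1, a nuclease, was higher in ERF115OX by 0.36 ± 0.10 (adjusted p = 0.015) but not without ERF115OX 2 (0.30, adjusted p = 0.065) or WT 2 (0.30, 0.052), and MC9, a metacaspase, was higher in ERF114OX by 0.30 ± 0.06 (adjusted p = 0.0026). Xylem cells also use several of these enzymes, and 5 of 6 xylem markers were higher in ERF115-SRDX, as given above, and 1 of 6 in each overexpression line. Their part in these differences was not tested.

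In the list of cap stem cells and identity, ACR4, a receptor kinase that restricts columella stem cell divisions, was lower in all 3 lines. Its log2 difference was -0.66 ± 0.16 in ERF115OX (adjusted p = 0.0069), -0.57 ± 0.16 in ERF114OX (adjusted p = 0.013, but 0.059 without WT 1) and -0.60 ± 0.16 in ERF115-SRDX (adjusted p = 0.0058, but 0.22 with the photosynthetic level in the model). ARF10, an auxin response factor of the cap, fell in ERF115-SRDX, to 1150 to 1291 normalized counts against 1853 to 1906 in WT (-0.61 ± 0.06, adjusted p = 3.5e-06), and was not called in the overexpression lines. The other 3 tested genes of that list were not called in any line. Calls covered 20% of the 5 tested genes in each overexpression line and 40% in ERF115-SRDX. These shares were below those of all tested genes, at 32.1% (ERF115OX), 37.1% (ERF114OX) and 50.1% (ERF115-SRDX).

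Among 10 genes of gravity sensing in the columella, 5 were lower and 0 higher in each overexpression line, and 4 were lower and 3 higher in ERF115-SRDX. That is 50% of the list called in each overexpression line and 70% in ERF115-SRDX, beside 32.1% (ERF115OX), 37.1% (ERF114OX) and 50.1% (ERF115-SRDX) of all tested genes. In ERF115OX the log2 differences of the starch synthesis genes were -0.67 ± 0.13 for ADG1 (adjusted p = 0.0021) and -0.46 ± 0.08 for SS4 (adjusted p = 0.0018). In ERF114OX the log2 differences were -0.95 ± 0.13 for ADG1 (adjusted p = 0.00021) and -0.58 ± 0.08 for SS4 (adjusted p = 0.00032). In ERF115-SRDX, PGM1, which also acts in starch synthesis, had -0.83 ± 0.13 (adjusted p = 0.00016) and PIN3, an auxin exporter of the columella, -0.50 ± 0.08 (adjusted p = 0.00019). Neither PGM1 (-0.50, adjusted p = 0.11) nor PIN3 (-0.30, 0.13) passed with the photosynthetic level in the model, and starch genes act in leaf plastids as well. These names follow the lowest p per comparison. PGM1 also lay below all WT libraries (1189 to 1573 normalized counts) in ERF115OX (881 to 1090) and ERF114OX (900 to 1076). SS4 did so in ERF115-SRDX (1043 to 1105 against 1246 to 1595 in WT). ADG1 also lay lower in ERF115-SRDX, at 2854 to 3627 against 3352 to 4739 in WT, but these ranges overlapped. AT1G72490, whose product is not characterized in TAIR10.1, was higher in ERF115-SRDX (0.79 ± 0.08, adjusted p = 5.9e-06) and lower in ERF115OX (-0.39 ± 0.08, adjusted p = 0.0045) and ERF114OX (-0.48 ± 0.08, adjusted p = 0.0011).

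**Figure D4:**
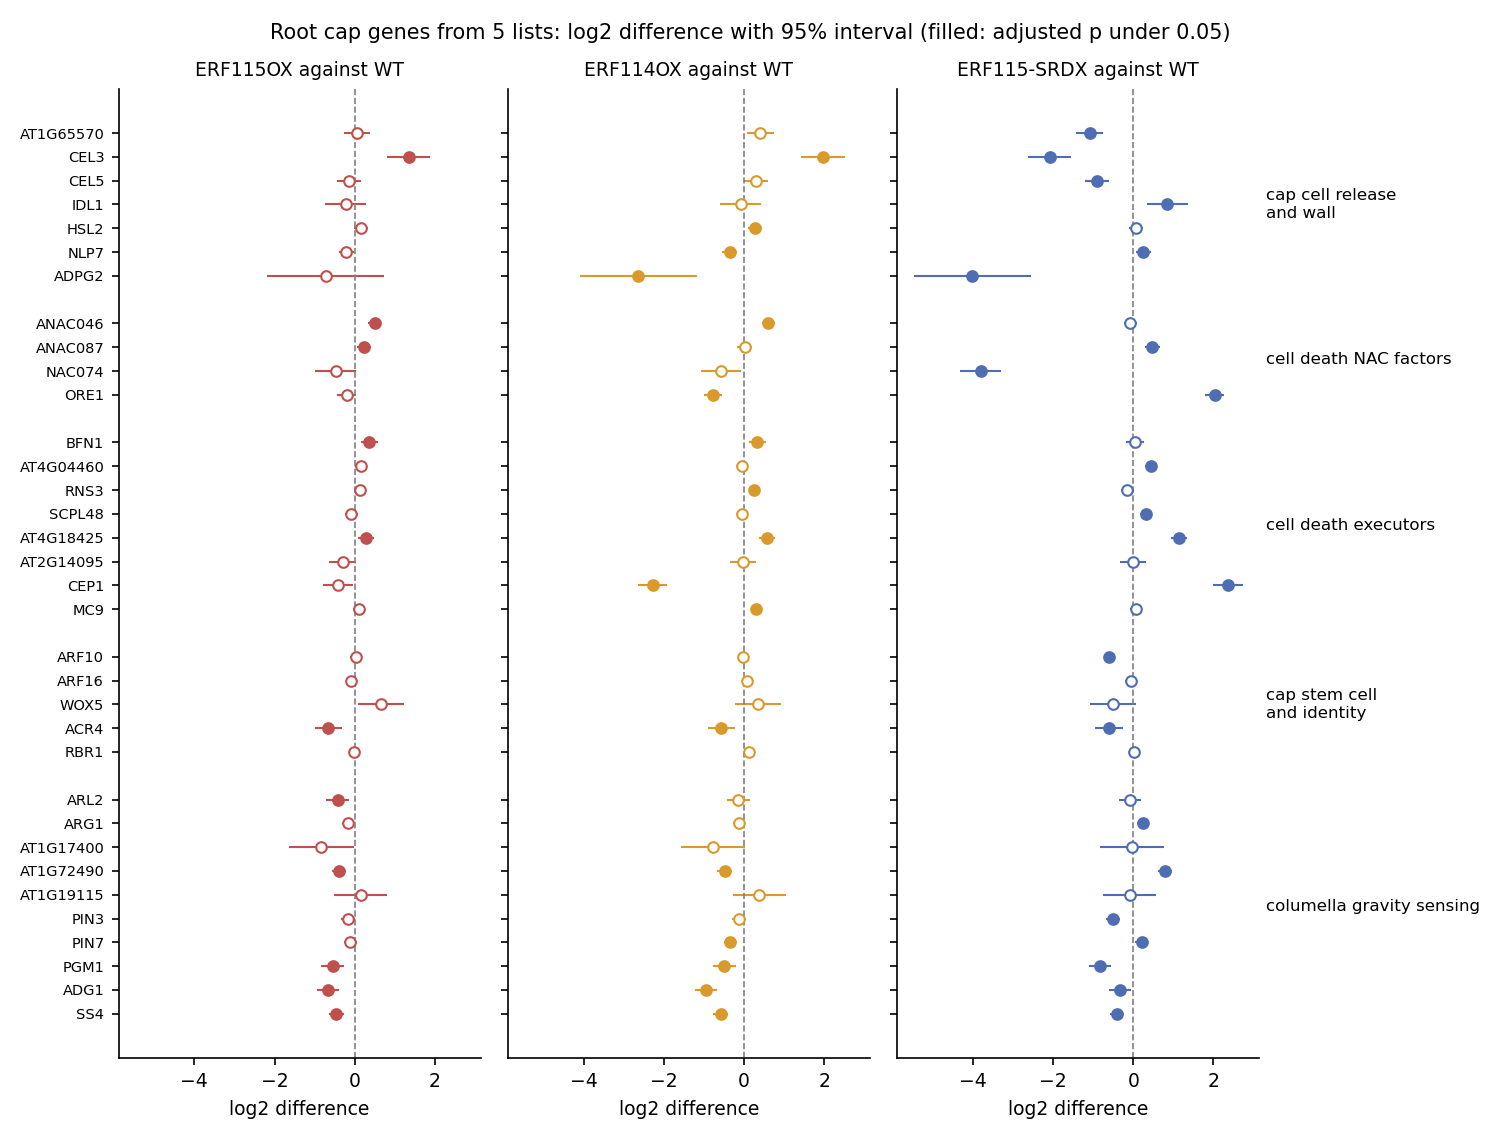
log2 differences against WT (x axis) of the 34 tested genes of 5 root cap lists (rows) in ERF115OX, ERF114OX and ERF115-SRDX; lines are 95% intervals and filled circles have an adjusted p under 0.05. CEL3 lies above 0 in both overexpression lines and below 0 in ERF115-SRDX, and NAC074, ORE1 and CEP1 lie far from 0 in ERF115-SRDX.

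SMB, BRN1 and BRN2 belong to the same branch of the NAC family as the factors of secondary wall formation, and 7 of 10 of those were tested, NST1, NST2 and NST3 being below the filter. VND7, a switch of xylem vessel formation, had 138, 161 and 157 normalized counts in ERF115OX, 184, 211 and 168 in ERF114OX, 52.4, 45.9 and 59.3 in ERF115-SRDX and 106, 95.6 and 109 in WT. It was higher in ERF115OX (0.55 ± 0.14, adjusted p = 0.012) and ERF114OX (0.85 ± 0.14, adjusted p = 0.00088) and lower in ERF115-SRDX (-0.97 ± 0.14, adjusted p = 0.00010). VND5 was lower in ERF115-SRDX (-0.87 ± 0.17, adjusted p = 0.00092, but 0.11 with the photosynthetic level in the model), and the other 5 were not called against WT. Of the whole NAC family as named in the annotation, without the 4 cap factors, 77 genes were tested. Calls against WT covered 20 of them (25.97%) for ERF115OX, 27 (35.1%) for ERF114OX and 55 (71.4%) for ERF115-SRDX. Of all tested genes 32.1%, 37.1% and 50.1% were called in these lines. The family's share was thus below that of all genes in ERF115OX, near it in ERF114OX and above it in ERF115-SRDX.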

How the data were processed

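Roots of 4-day-old seedlings were sequenced as 12 libraries, 3 per genotype, from oligo(dT)-selected RNA, per the labels' protocols. The deposited signal is the authors' DESeq2 normalized count, the reads of a gene divided by a size factor per library. The submitters' processing notes name Trimmomatic 0.39, HISAT2 2.2.1, SAMtools 1.11, Subread 2.0.1 (featureCounts) and DESeq2. No label or header names the build, annotation or strand setting (not given in the sources used here), so positions are left out. Names and neighbours came from TAIR10.1, where all 37884 identifiers matched.

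Reads were recovered from the step of each library's values, and 1 of 316348 values above 0 was not whole at a relative tolerance of 1e-06. In ERF115OX 1, ERF115-SRDX 1, ERF115-SRDX 3 and WT 3 that step is close to 1 (0.989 to 1.01), so whole reads are harder to tell from rounded values there, and depth and the edgeR and DESeq2 fits rest on all 12 libraries. Normalized counts plus a pseudocount of 1 were taken to log2 and fitted with limma 3.58.1 (R 4.3.3) over all 12 libraries and 23375 genes with a mean of at least 10. Calls were made at a Benjamini-Hochberg adjusted p under 0.05. Alternatives were edgeR 4.0.16 and DESeq2 1.42.0 fits of the reads, other pseudocounts, filters and scalings, and single libraries left out. The limma fit was also run on simulated counts in which few genes changed, so that run does not cover shifts as broad as those here.

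Members and lists were chosen with earlier results of these data known. The rule named ERF115, ERF114, the 4 members, up to 3 called genes of lowest p per list and comparison with WT, and the 3 genes most correlated with each member. Roles were taken from the annotation or general knowledge. Floors cover counting error only.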

Additional observations from a re-analysis of the deposited data

How the results depend on the processing

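Of 576 alternative values for the 4 factors (24 settings, 6 comparisons), 537 kept their direction and side of the threshold, 21 lost the call, 4 gained it and 14 changed sign, none of them a called value. In ERF115-SRDX against WT, BRN1 lost its call under quantile normalization (-0.43) and FEZ with no filter (-0.43), under quantile normalization (-0.22), in DESeq2 (-0.42) and with only the groups compared (-0.43). With the photosynthetic level in the model the values were -0.75 for BRN2 and -0.67 for FEZ in that comparison, 0.85 for BRN1 in ERF115OX against ERF115-SRDX, -0.48 for SMB in ERF115OX against ERF114OX, as also in DESeq2 (-0.48), and -0.080 for BRN1 in ERF114OX against WT. With ERF114OX 1 and ERF115-SRDX 2 left out they were -0.37 for BRN1 and -0.35 for FEZ in ERF115-SRDX against WT, 0.46 for FEZ and -0.0049 for SMB in ERF115OX against ERF115-SRDX, and 0.38 for SMB, 0.41 for BRN1 and 0.44 for FEZ in ERF114OX against ERF115-SRDX. Quantile normalization gave -0.038 for FEZ in ERF115OX against ERF114OX and -0.035 for SMB in ERF115OX against ERF115-SRDX. The cause of these changes was not tested.

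Leaving out 1 library at a time gave -0.70 to -0.37 for BRN1 and -0.52 to -0.35 for FEZ in ERF115-SRDX against WT, -0.047 to 0.21 for BRN2 in ERF115OX against WT, -0.065 to 0.15 for BRN1 and -0.0051 to 0.12 for FEZ in ERF114OX against WT, -0.59 to -0.35 for SMB and -0.021 to 0.13 for FEZ in ERF115OX against ERF114OX, -0.091 to 0.16 for SMB in ERF115OX against ERF115-SRDX and 0.42 to 0.60 for FEZ in ERF114OX against ERF115-SRDX. ERF114 ranged from -0.11 to 2.46 in ERF115OX and from -0.16 to 0.65 in ERF115-SRDX against WT, where it was -1.15 with the photosynthetic level.

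With that level in the model, called genes numbered 6118 in ERF115-SRDX against WT (11707 as reported), 8304 in ERF115OX (13097) and 8418 in ERF114OX against ERF115-SRDX (13074), and 11 root cap list genes were called in ERF115-SRDX against WT (22). The level differs between these lines, so such counts do not separate level from line. Called genes in ERF115OX against ERF114OX numbered 917 with only those groups in the fit and 600 to 2204 with 1 library left out (1613 as reported): 600 without ERF115OX 2, 887 without ERF115OX 3, 841 without ERF114OX 2 and 922 without ERF114OX 3. Deviations from the group means correlated at -0.28 to 0.44 between same-numbered libraries and at -0.56 to 0.40 between differently numbered ones. Whether equal numbers mark a shared batch cannot be told from these ranges. A replicate block ended the call on ANAC087 in ERF115OX against WT (adjusted p = 0.054) and changed no call on the 4 factors or the other named genes, with BRN2 at -0.60 (adjusted p = 0.0078) and 11562 called genes in ERF115-SRDX against WT. Depth limits FEZ, whose counting error is near its spread between libraries.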
